A study of Mus musculus with 6 samples.

Results

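From the 44792 gene symbols in the deposited count table, the messenger RNA of 10 genes was followed in 6 mouse hearts. They encode proteins that store, release or take up calcium in the sarcoplasmic reticulum of muscle, or that anchor or regulate such proteins. The genes were chosen by name: Atp2a2, Pln, Ryr2, Casq2, Casq1, Hrc, Trdn, Jph2, Asph and Sri. All 10 had a row in the table, and all 10 passed the filter on low counts. The hearts came from untreated 3-month-old C57BL/6 mice, 3 with the R193H mutation of cardiac troponin I (cTnI) and 3 wild type. Each heart gave 1 library of total RNA, and the design text describes them as biological repeats. The labels do not state how the allele was made or whether 1 or both copies of the gene carried it.

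The sarcoplasmic reticulum is the calcium store of the heart muscle cell. At each beat, calcium that enters from outside opens the ryanodine receptor in the store's membrane, and the released calcium binds troponin and starts contraction. A pump then returns the calcium to the store, and its inhibitor phospholamban sets how fast this happens. Cardiac troponin I, the subunit altered in the mutant mice, lies downstream of this release on the thin filament.

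The hearts held 21852210, 19582600 and 21468372 counts in R193H replicates 1, 2 and 3, against 14736067, 17432761 and 20652534 counts in wild type replicates 1, 2 and 3. Tnni3, the gene of cardiac troponin I, was expressed in all hearts, at 3641 to 3900 CPM in R193H and 3202 to 3466 CPM in wild type hearts, but counts per gene do not show the substituted base. CPM are read counts scaled to a common library size, with factors from the trimmed mean of M values (TMM). All 8 ventricular muscle markers were detected in every heart. In R193H hearts 6 of them averaged lower. Their summed level was 38291 to 41577 CPM in R193H hearts, against 41825 to 44016 CPM in wild type hearts. The summed level of 4 macrophage markers was 111 to 147 CPM in R193H hearts, against 87.6 to 102 CPM in wild type hearts. Mitochondrially encoded genes took 30.9% to 35.4% of the counts in R193H hearts and 36.7% to 36.8% in wild type hearts, with the lowest share in R193H replicate 2.

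None of the 10 calcium store genes passed the threshold of 0.05 for the adjusted p between R193H and wild type hearts in edgeR, where 0.00696% of the 14370 genes tested did. Their edgeR adjusted p values ran from 0.863 for Hrc to 0.996 for Asph. Without adjustment, 0 of the 10 had a p under 0.05, beside 5.73% of all genes tested (2.51% lower and 3.22% higher in R193H hearts). DESeq2 also called 0 of the 10, beside 0.292% of all genes. Of the 10 genes, 5 had a lower mean and 5 a higher mean in R193H hearts. Their median log2 fold change was -0.041, beside -0.00036 over all genes tested. For 4 of the 10 genes the 3 R193H hearts did not overlap the 3 wild type hearts. Across all genes tested, 11.8% separated in this way, 5.8% with R193H lower and 6.02% with R193H higher. The release channel Ryr2, the luminal protein Hrc and the pump Atp2a2 lay lower in every R193H heart than in any wild type heart, while the calcium buffer Casq2 lay higher. The 10 genes were named with earlier results of these data known, so this count is a description.

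**Figure D1:**
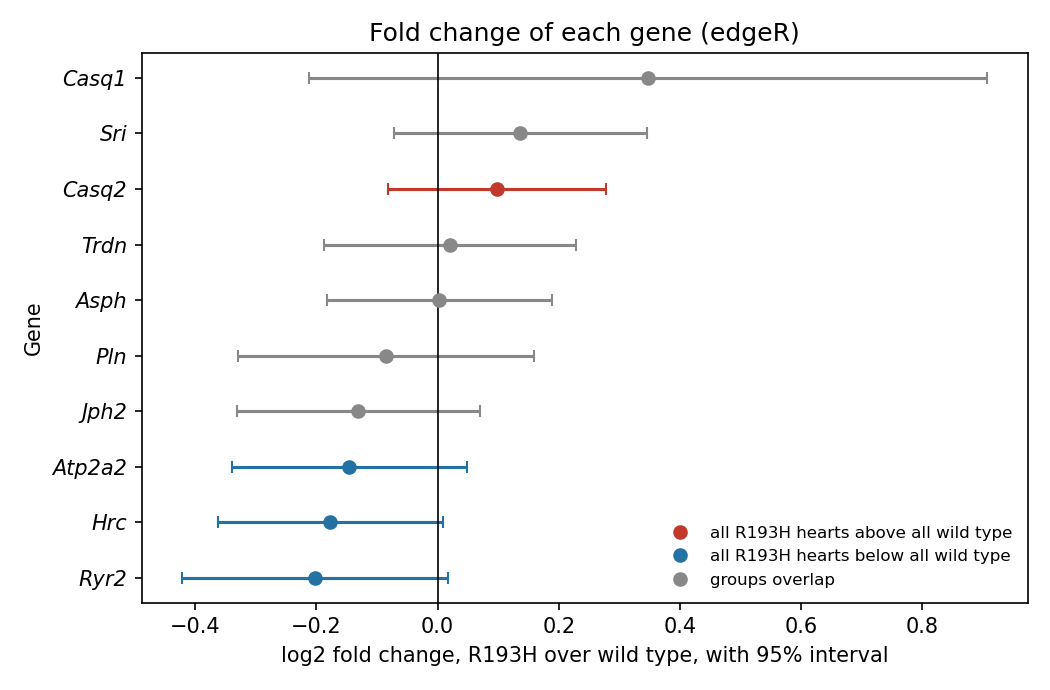
The log2 fold change of each gene, R193H over wild type, with its 95% interval from edgeR, ordered from highest to lowest. All 10 intervals include 0; Ryr2, Hrc and Atp2a2 are the genes whose R193H hearts all lie below the wild type hearts, and Casq2 is the gene whose R193H hearts all lie above.

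The levels of the genes spanned a wide range that both genotypes shared. Levels are compared between genes as CPM per kilobase of the longest annotated coding transcript. On this scale Pln and Atp2a2 led, at 2371 ± 343 and 2126 ± 128 in R193H hearts, against 2516 ± 37.8 and 2352 ± 133 in wild type hearts (SD, n = 3 each). Hrc and Casq2 followed, at 407 ± 21.0 and 314 ± 16.5 in R193H hearts, against 461 ± 22.1 and 293 ± 8.83 in wild type hearts. Ryr2, which has by far the longest transcript of the set, came next at 90.3 ± 9.38 in R193H and 104 ± 5.98 in wild type hearts. Below it stood Jph2 at 58.0 ± 2.99 and 63.5 ± 5.46, and Trdn at 34.7 ± 1.99 and 34.2 ± 3.29, in R193H and wild type hearts. The lowest were Sri at 16.4 ± 1.40 and 14.9 ± 1.07, Asph at 9.39 ± 0.794 and 9.38 ± 0.0800, and Casq1 at 5.04 ± 1.71 and 3.96 ± 0.821, again in R193H and wild type hearts. From Hrc down, the order was the same in all 6 hearts, and no heart of 1 gene reached the range of its neighbour. Pln and Atp2a2 were the exception, since Pln lay above Atp2a2 in 5 hearts and below it in R193H replicate 2, at 1980 against 2200 CPM per kilobase. The order also depends on the length used: per kilobase of all merged exons, Ryr2 averaged 52.7 in R193H and 60.7 in wild type hearts, below Jph2 at 57.4 and 62.8.

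**Figure D2:**
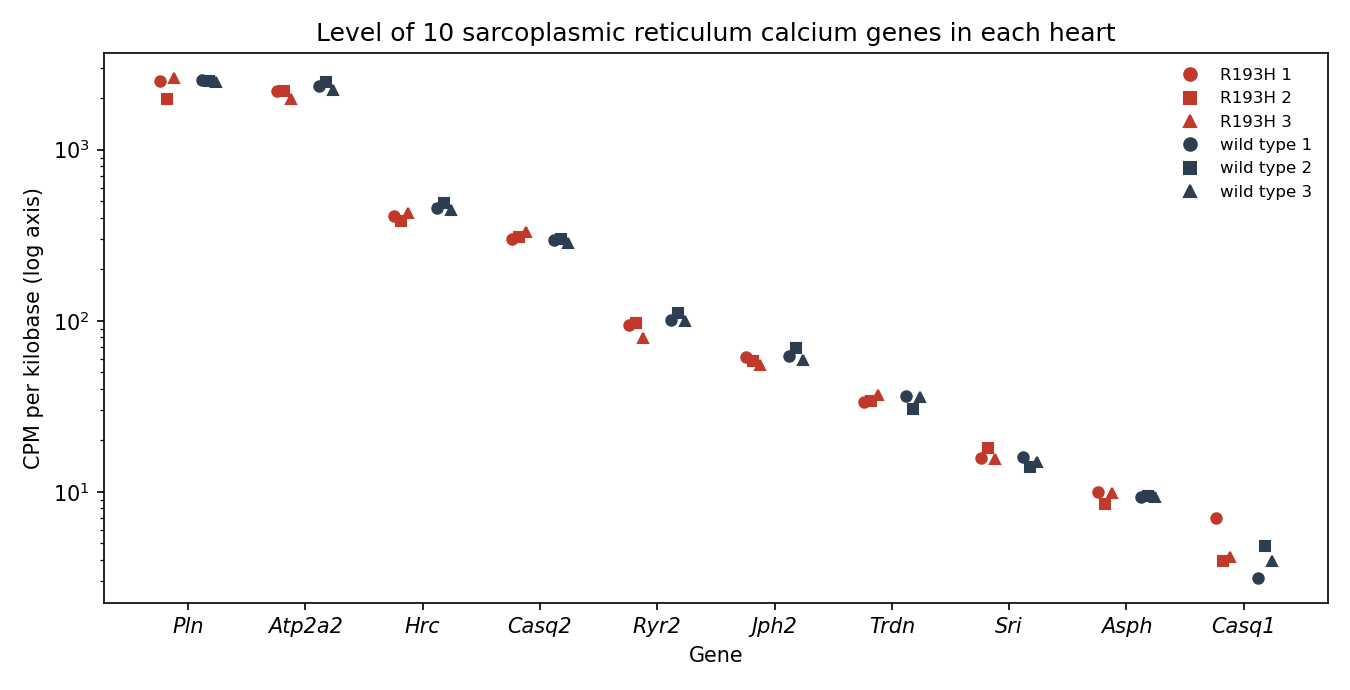
Level of each gene in each heart as CPM per kilobase of the longest coding transcript, on a log axis, with R193H hearts (red) left of wild type hearts (dark). Pln and Atp2a2 lie between 1979 and 2625 CPM per kilobase and Casq1 between 3.15 and 7.01, and the steps between most genes are larger than any difference between the genotypes.

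Atp2a2 encodes the calcium pump that refills the store (GRCm38 chromosome 5, 122453513 to 122502225, minus strand). It measured 9872, 9870 and 8876 CPM in R193H hearts, against 10523, 11166 and 9971 CPM in wild type hearts. All 3 R193H hearts lay below all 3 wild type hearts, though R193H replicate 1 was close to wild type replicate 3. The mean in R193H hearts was 0.904 of the wild type mean, with a 95% interval of 0.79 to 1.03 (log2 fold change -0.15, SE 0.087, edgeR adjusted p = 0.898). The summed ventricular markers given above were also lower, and the summed macrophage markers higher, in all R193H hearts. The summed endothelial, fibroblast, smooth muscle and red cell markers overlapped between genotypes. Endothelial markers summed to 960 to 1077 CPM in R193H hearts, against 886 to 1080 CPM in wild type hearts. Red cell markers summed to 451 to 593 CPM in R193H hearts, against 243 to 2925 CPM in wild type hearts. Gene by gene the ventricular markers were mixed. Myh6 and Tnnt2 lay lower in all R193H hearts, Tnni3 lay higher, and the others overlapped. Myh6 alone measured 8256 to 8776 CPM in R193H hearts, against 9016 to 11730 CPM in wild type hearts. The part of these cell types in this difference and in those of Ryr2, Hrc and Casq2 was not tested. In bulk tissue, fewer muscle cells and less of a transcript per cell cannot be told apart. When hearts were scaled by their total counts alone, the median log2 fold change of all genes was 0.13. Atp2a2 then had a log2 fold change of -0.016, and its groups overlapped. Without R193H replicate 3 it was -0.089.

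Pln encodes phospholamban, the small membrane protein that slows the pump until it is phosphorylated (chromosome 10, 53337667 to 53345987, plus strand). It measured 5855, 4622 and 6126 CPM in R193H hearts, against 5940, 5902 and 5772 CPM in wild type hearts. The wild type hearts were close together, with a coefficient of variation of 1.5%, against 14.5% in R193H hearts, and R193H replicates 2 and 3 lay below and above the whole wild type range. The log2 fold change was -0.085 (SE 0.11), with a 95% interval for the fold of 0.796 to 1.12 (edgeR adjusted p = 0.932), and it turned to 0.031 without R193H replicate 2. That heart also had the highest summed fibroblast markers, at 1909 CPM against 1217 and 1284 CPM in the other R193H hearts and 1140 to 1372 CPM in wild type hearts. Its smooth muscle markers summed to 524 CPM, against 297 to 411 CPM in the other 5 hearts, and its TMM factor was the highest at 1.118. Their part in the Pln level was not tested. Pln shares 141 exon bases with Cep85l on the opposite strand in GENCODE M21, but Cep85l had 161 to 283 counts in R193H and 95 to 217 in wild type hearts, against 101041 to 131559 in R193H and 83711 to 115230 in wild type hearts for Pln. Gm47644, annotated on the same opposite strand, shares 1644 exon bases with Pln, or 59.6% of the merged exons of Pln. The count table has no row under the name Gm47644, so whether its reads are in the Pln count could not be checked.

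The ratio of Pln to Atp2a2 counts needs no scaling between hearts. It was 0.593, 0.468 and 0.690 in R193H replicates 1, 2 and 3, against 0.565, 0.529 and 0.579 in wild type replicates 1, 2 and 3. The R193H hearts lay on both sides of the wild type range, with replicate 2 below it and replicates 1 and 3 above. The ratio averaged 0.584 ± 0.111 in R193H and 0.557 ± 0.0259 in wild type hearts (SD, n = 3 each), and the log2 difference of 0.050 did not hold up against this spread (exact two-sided permutation test, p = 0.8, adjusted p = 0.914 over 8 ratios). With 3 hearts against 3, this test cannot give a p under 0.1. Without R193H replicate 3 the log2 difference turned to -0.079. Per base of the longest coding transcript, the ratio averaged 1.12 in R193H and 1.07 in wild type hearts.

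**Figure D3:**
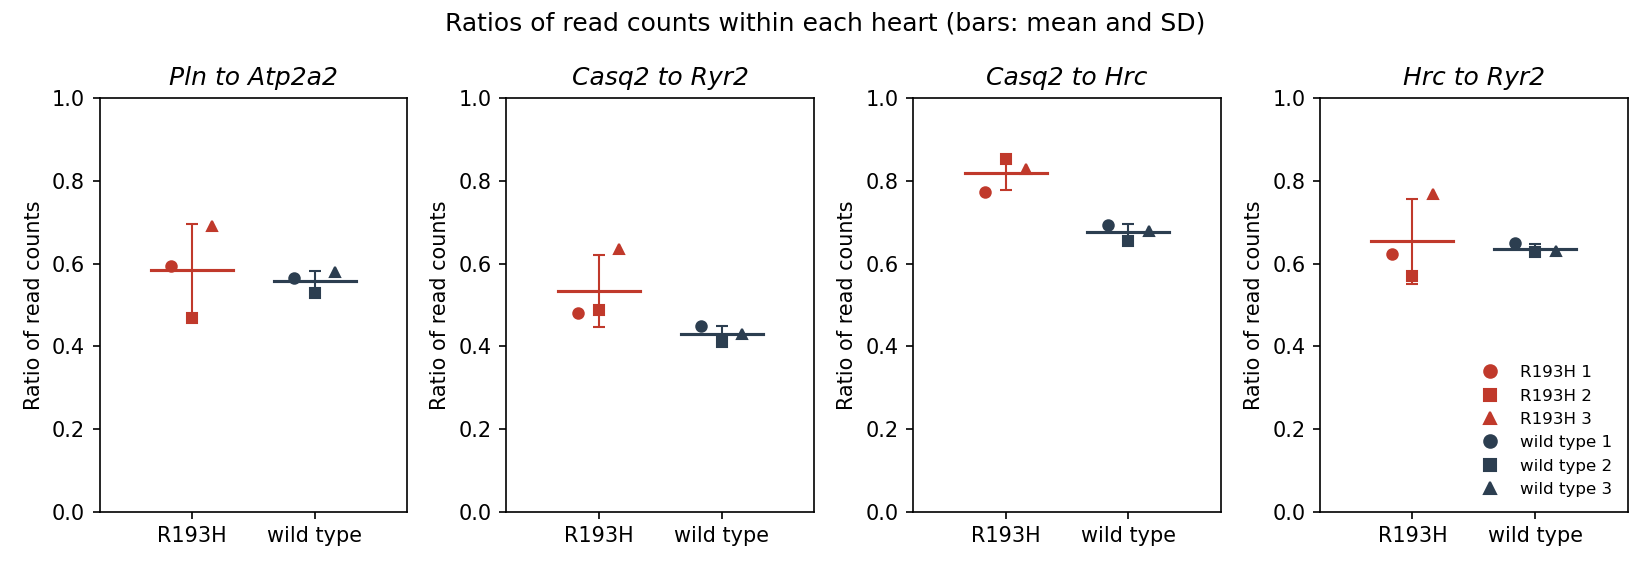
Ratio of the read counts of 2 genes within each heart for 4 pairs, with R193H hearts (red) left of wild type hearts (dark); bars show the mean and SD. The Pln to Atp2a2 and Hrc to Ryr2 ratios overlap between genotypes, with the R193H hearts more widely spread, and the Casq2 to Ryr2 and Casq2 to Hrc ratios are higher in all 3 R193H hearts.

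Among the release channel and the proteins that hold calcium beside it, Ryr2 and Hrc lay on the low side in R193H hearts and Casq2 on the high side. To show the sequence in front of these 3 genes, the 250 bases before the RefSeq start (GRCm38.p6) are given 5′ to 3′ on the strand of the gene. Capitals mark E-boxes (CANNTG), the letters that many muscle and other helix-loop-helix factors bind.
Ryr2 (chr13:12106946-12107195, minus strand): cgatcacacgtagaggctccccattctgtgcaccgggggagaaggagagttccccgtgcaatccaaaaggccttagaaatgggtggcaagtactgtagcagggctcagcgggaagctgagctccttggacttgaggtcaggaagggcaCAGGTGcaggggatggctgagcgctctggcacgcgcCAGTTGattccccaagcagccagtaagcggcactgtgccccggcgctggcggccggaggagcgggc
Hrc (chr7:45335019-45335268, plus strand): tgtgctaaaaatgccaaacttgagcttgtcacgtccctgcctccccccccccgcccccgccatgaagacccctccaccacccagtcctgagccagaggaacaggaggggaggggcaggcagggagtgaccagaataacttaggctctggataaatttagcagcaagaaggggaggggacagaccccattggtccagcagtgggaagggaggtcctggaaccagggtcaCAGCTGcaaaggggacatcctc
Casq2 (chr3:102086165-102086414, plus strand): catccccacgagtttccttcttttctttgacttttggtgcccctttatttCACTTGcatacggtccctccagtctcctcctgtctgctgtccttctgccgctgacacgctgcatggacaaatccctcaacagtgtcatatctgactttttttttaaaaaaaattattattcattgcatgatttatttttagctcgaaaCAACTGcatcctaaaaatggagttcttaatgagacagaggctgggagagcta
The windows of Ryr2 and Casq2 each held 2 E-boxes and that of Hrc 1, and 66.2% of all 32851 windows of this length hold at least 1. A GC box (GGGCGG on either strand, in 32.7% of all windows) was in the Hrc window and not in the other 2. The letters TATAAA (12.4% of windows, either strand) were in none of the 3. The form of the MEF2 core that was searched, with C first and G last (3.2% of windows), was also in none of them. Forms of the MEF2 motif with other end letters were not searched, so these windows may still hold such forms. The matches of different motifs did not overlap. RefSeq windows were found for 7 of the 10 genes, and among the others the Pln window held TATAAA. These are matches of letters and were not tested as binding sites.

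Ryr2 encodes the ryanodine receptor, the channel through which the store empties (chromosome 13, 11553102 to 12106945, minus strand). It measured 1594, 1624 and 1337 CPM in R193H hearts, against 1692, 1863 and 1687 CPM in wild type hearts. All R193H hearts were lower, R193H replicate 3 by the widest margin. The R193H mean was 0.869 of the wild type mean, with a 95% interval of 0.746 to 1.01 (log2 fold change -0.20, SE 0.098, edgeR adjusted p = 0.866). Without R193H replicate 3 the log2 fold change was -0.11, and under library totals it was -0.070 with overlapping groups.

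Casq2 encodes cardiac calsequestrin, the main calcium buffer inside the store of heart muscle (chromosome 3, 102086415 to 102146514, plus strand). It measured 767.6, 791.1 and 849.6 CPM in R193H hearts, against 759.9, 765.5 and 723.9 CPM in wild type hearts. The gap between the groups was narrow, since R193H replicate 1 was at 767.6 CPM and wild type replicate 2 at 765.5 CPM. The log2 fold change was 0.099 (SE 0.081), with a 95% interval for the fold of 0.945 to 1.21 (edgeR adjusted p = 0.901). The groups also did not overlap under DESeq2 size factors, upper-quartile factors or library totals, or with mitochondrial genes left out. Under library totals, 16.5% of all genes tested lay higher in all R193H hearts. Without R193H replicate 3 the log2 fold change was 0.064.

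Set against the channel in the same heart, Casq2 counts were 0.482, 0.487 and 0.635 of Ryr2 counts in R193H hearts, against 0.449, 0.411 and 0.429 in wild type hearts. All 3 R193H hearts were higher. This followed from the levels above, since Casq2 was higher and Ryr2 lower in every R193H heart. The ratio therefore had to separate, its p had to be the smallest possible, and it is not a further result. The ratio averaged 0.535 ± 0.0872 in R193H and 0.430 ± 0.0192 in wild type hearts (SD, n = 3 each), a log2 difference of 0.30 (exact two-sided permutation test, p = 0.1, the smallest this design allows, adjusted p = 0.4 over 8 ratios). Without R193H replicate 3 the log2 difference was 0.17. The ratio of Casq2 to Hrc, chosen after the values were seen and therefore not tested, was 0.773, 0.853 and 0.827 in R193H hearts, against 0.692, 0.655 and 0.680 in wild type hearts. Likewise, Casq2 to Atp2a2 was 0.0778 to 0.0957 in R193H and 0.0686 to 0.0726 in wild type hearts. These separations also follow from the separate levels of the genes. Ryr2 to Atp2a2 and Hrc to Atp2a2, added at the same stage, overlapped between genotypes. The former was 0.151 to 0.165 in R193H and 0.161 to 0.169 in wild type hearts, the latter 0.09395 to 0.1157 and 0.1044 to 0.1068. Of all 45 pairs of the 10 genes, 10 had ratios that did not overlap, 5 of them with Casq2.

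Hrc encodes the histidine-rich calcium-binding protein, which binds calcium in the lumen and contacts both the pump and triadin (chromosome 7, 45335290 to 45338974, plus strand). It measured 993, 927 and 1027 CPM in R193H hearts, against 1098, 1169 and 1065 CPM in wild type hearts. All R193H hearts were lower, R193H replicate 2 by the widest margin. The R193H mean was 0.884 of the wild type mean, with a 95% interval of 0.778 to 1.01 (log2 fold change -0.18, SE 0.083, edgeR adjusted p = 0.863). Under library totals the log2 fold change was -0.052, with overlapping groups. Hrc to Ryr2 counts averaged 0.654 ± 0.102 in R193H and 0.636 ± 0.0116 in wild type hearts (SD, n = 3 each; exact two-sided permutation test, p = 1, adjusted p = 1 over 8 ratios). That difference turned negative without R193H replicate 3.

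Casq1 encodes the calsequestrin of fast skeletal muscle and was the lowest of the set (chromosome 1, 172209894 to 172219868, minus strand). It had 288, 160 and 165 counts in R193H hearts, against 82, 146 and 145 counts in wild type hearts, or 12.95, 7.32 and 7.68 CPM against 5.82, 8.85 and 7.26 CPM. R193H replicate 1 stood above all other hearts, and the other 5 hearts were mixed. The log2 fold change was 0.35 (SE 0.25), with the widest 95% interval of the set, 0.863 to 1.88 for the fold (edgeR adjusted p = 0.900). Skeletal muscle markers were at or near 0: Myh4 had no count in any heart, and 9 markers together reached 2.83 to 3.66 CPM in R193H and 2.34 to 3.15 CPM in wild type hearts. The part of skeletal muscle in the Casq1 level was not tested. Without R193H replicate 1 the log2 fold change was 0.033, and without wild type replicate 1 it was 0.21. Casq1 counts were 0.0169, 0.00925 and 0.00904 of Casq2 counts in R193H hearts, against 0.00766, 0.0116 and 0.0100 in wild type hearts (exact two-sided permutation test, p = 0.7, adjusted p = 0.914 over 8 ratios). The log2 difference of that ratio, 0.22 with all hearts, turned to -0.071 without R193H replicate 1.

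Trdn and Asph encode triadin and junctin, the membrane proteins that tie calsequestrin to the ryanodine receptor. Trdn (chromosome 10, 33080554 to 33476709, plus strand) measured 150.2, 152.5 and 166.8 CPM in R193H hearts, against 163.3, 137.2 and 162.5 CPM in wild type hearts. The groups overlapped, with wild type replicate 2 the lowest heart. Its log2 fold change was 0.020 (SE 0.093), with a 95% interval for the fold of 0.878 to 1.17 (edgeR adjusted p = 0.985). Asph (chromosome 4, 9448069 to 9669344, minus strand) measured 66.4, 56.8 and 65.5 CPM in R193H hearts, against 62.8, 63.3 and 62.2 CPM in wild type hearts. The wild type hearts were nearly equal, and the R193H hearts lay on both sides of them. Its log2 fold change was 0.0029 (SE 0.083), with a 95% interval for the fold of 0.881 to 1.14 (edgeR adjusted p = 0.996). Asph also makes the enzyme aspartate beta-hydroxylase and other proteins from different transcripts. GENCODE M21 lists 15 coding transcripts of 457 to 6694 bases for Asph, so its count is not a measure of junctin alone. Clvs1, on the strand opposite to Asph, shares 2302 exon bases with it and had 0 counts in all 6 hearts. The antisense transcript D830005E20Rik lies within the span of Trdn but shares 0 exon bases, with 412 to 791 counts in R193H and 409 to 723 counts in wild type hearts.

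Jph2 encodes junctophilin, which holds the store membrane close to the surface membrane (chromosome 2, 163336242 to 163397993, minus strand). It measured 256.8, 243.9 and 231.7 CPM in R193H hearts, against 261.8, 292.5 and 247.5 CPM in wild type hearts. The groups overlapped at wild type replicate 3. The log2 fold change was -0.13 (SE 0.090), with a 95% interval for the fold of 0.795 to 1.05 (edgeR adjusted p = 0.900). It was -0.087 without R193H replicate 3 and -0.062 without wild type replicate 2. Sri encodes sorcin, a cytosolic calcium sensor that binds the ryanodine receptor (chromosome 5, 8046078 to 8069379, plus strand). It measured 39.4, 45.1 and 38.7 CPM in R193H hearts, against 40.1, 34.7 and 37.4 CPM in wild type hearts, with R193H replicate 2 the highest heart. Its log2 fold change was 0.14 (SE 0.093), with a 95% interval for the fold of 0.951 to 1.27 (edgeR adjusted p = 0.900). It was 0.066 without R193H replicate 2 and 0.085 without wild type replicate 2. Sri and Asph are expressed in many cell types, unlike most of the other genes.

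The ratios of these 4 genes to Ryr2 leaned higher in R193H hearts to different degrees. Ryr2 itself was lower, at a log2 fold change of -0.20. Trdn and Asph hardly differed, at 0.020 and 0.0029, and Jph2 was lower, at -0.13. Their ratios thus mostly restate the Ryr2 level. Sri counts were 0.02471, 0.02777 and 0.02897 of Ryr2 counts in R193H hearts, against 0.0237, 0.01864 and 0.02215 in wild type hearts. The groups did not overlap, and the log2 difference was 0.34 (exact two-sided permutation test, p = 0.1, adjusted p = 0.4 over 8 ratios). The other 3 ratios overlapped between genotypes, with log2 differences of 0.23 for Trdn, 0.21 for Asph and 0.078 for Jph2 (exact two-sided permutation tests, p = 0.6, 0.3 and 0.4, adjusted p = 0.914, 0.8 and 0.8). Without R193H replicate 3 these were 0.094 for Trdn, 0.086 for Asph and 0.026 for Jph2, and without wild type replicate 2 the difference for Trdn was 0.099. Ryr2 is in the denominator of 6 of the 8 ratios, so they are not independent.

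The genes also differed in which hearts were high or low. On the log2 CPM scale (with 0.5 CPM added), relative to the wild type mean, Atp2a2 stood at -0.095, -0.095 and -0.25 in R193H hearts and at -0.0026, 0.083 and -0.080 in wild type hearts. Ryr2 stood at -0.13, -0.10 and -0.38, and Jph2 at -0.054, -0.13 and -0.20, in R193H replicates 1, 2 and 3. In wild type hearts Ryr2 stood at -0.045, 0.094 and -0.049, and Jph2 at -0.026, 0.13 and -0.11. All 3 genes were thus highest in wild type replicate 2 and lowest in R193H replicate 3. Pln followed another order, at -0.0038, -0.34 and 0.062 in R193H and 0.017, 0.0077 and -0.025 in wild type hearts.

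**Figure D4:**
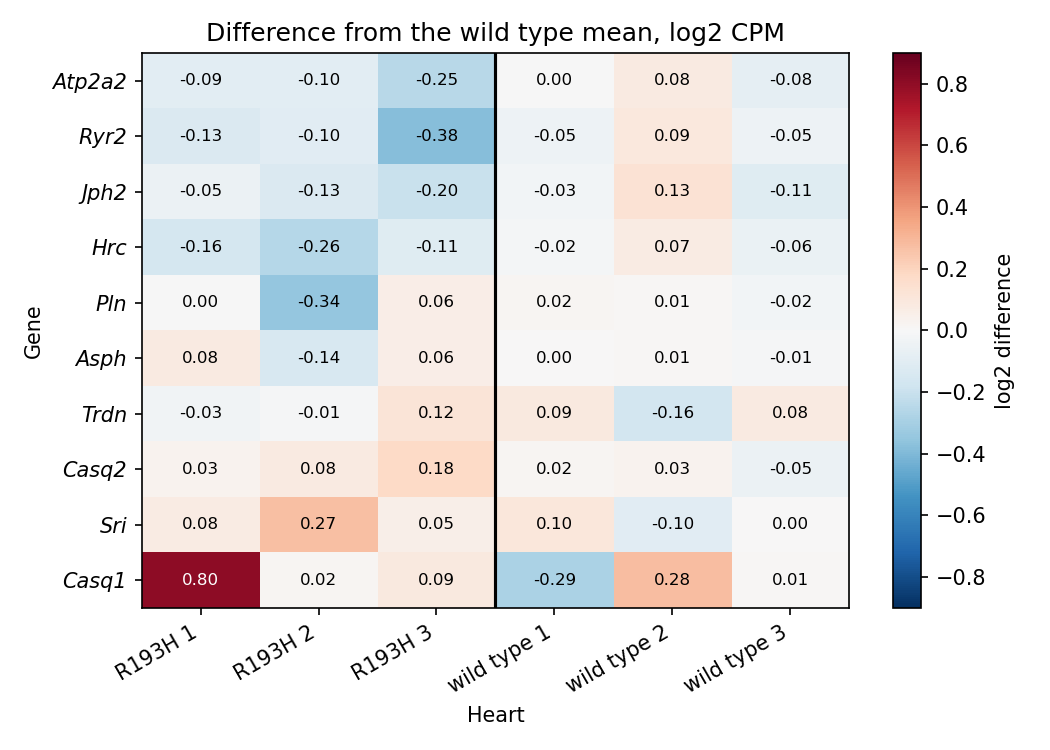
Difference of each gene in each heart from its wild type mean, in log2 CPM, with the 3 R193H hearts left of the black line and the 3 wild type hearts right of it. Atp2a2, Ryr2, Jph2 and Hrc are below 0 in all 3 R193H hearts, Casq2, Sri and Casq1 are above 0 in all 3, and Casq1 in R193H replicate 1 stands highest at 0.80.

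Likeness of pattern was measured as the root mean square difference of log2 CPM, centred on each gene's mean, over the 6 hearts and 7939 other genes with a mean of at least 10 CPM. The 5 genes nearest to Atp2a2 were Kif13a, Ap3d1, Zfp629, Agpat1 and Thap11, at 0.0164 to 0.0218. Jph2 ranked 15 at 0.0370 and Ryr2 ranked 86 at 0.0537, while Hrc ranked 855 at 0.0904 and Pln ranked 4920 at 0.169. Asph ranked 3054 and Casq2 4282, and Sri at 5241 and Trdn at 5364 lay farther than Pln. Casq1, with a mean under 10 CPM, was not searched. The 5 genes nearest to Pln were Rars2, Chchd3, Mpc1-ps, Bmi1 and Arvcf, at 0.0205 to 0.0308, and its nearest gene of the calcium store set was Asph, which ranked 395 at 0.0760. With only 6 hearts these are descriptions of the libraries.

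Together the 10 genes took 2.0%, 2.05% and 1.87% of the counts in R193H hearts, against 1.97%, 2.03% and 1.91% in wild type hearts. Atp2a2 and Pln made up 79.8% of these counts. The mean share was 1.97% ± 0.0894 in R193H and 1.97% ± 0.0589 in wild type hearts (SD, n = 3 each; exact two-sided permutation test, p = 1). Without the mitochondrially encoded genes, the share was 2.98% ± 0.0907 in R193H and 3.11% ± 0.0937 in wild type hearts (SD, n = 3 each; exact two-sided permutation test, p = 0.2).

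A list of 59 partner genes, drawn up by role, gave the surroundings of the set. Of these, 55 were matched to the table and 48 were tested, and edgeR called 0 of them, as did DESeq2. Without adjustment 4 of the 48 (8.33%) had a p under 0.05, beside 5.73% of all genes tested, and for 8 (16.7%) the groups did not overlap, beside 11.8%. Lower means in R193H hearts numbered 30 and higher means 18, with a median log2 fold change of -0.050. The 4 with an unadjusted p under 0.05 all had lower means: Camk2b, a calcium and calmodulin dependent kinase, at -0.43 (SE 0.14), Cacna1c, the pore of the surface calcium channel that triggers release, at -0.27 (SE 0.094), its subunit Cacna2d1 at -0.21 (SE 0.088), and Speg, a muscle kinase that binds the release complex, at -0.21 (SE 0.083), all as log2 fold changes. Cacna1c measured 154, 180 and 154 CPM in R193H hearts, against 185, 212 and 192 CPM in wild type hearts. By role, means were lower in R193H hearts for 5 of 5 tested genes of surface calcium entry and exit, 11 of 13 kinases and phosphatases, 4 of 5 pump relatives and regulators, and 4 of 4 channel relatives. They were higher for 6 of 7 proteins that bind the channel, 4 of 6 store proteins and 5 of 8 junction and membrane proteins. Of all genes tested, 50.1% had a log2 fold change below 0.

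Among the relatives of the pump and channel, none passed. Sln encodes sarcolipin, an atrial pump inhibitor, and measured 3.51, 27.0 and 1.96 CPM in R193H hearts, against 40.9, 25.4 and 0.10 CPM in wild type hearts. The 6 hearts stood in the same order for the atrial myosin light chain Myl7, at 8.54, 62.1 and 2.89 CPM in R193H and 74.1, 54.0 and 0.401 CPM in wild type hearts, and the part of atrial tissue was not tested. The skeletal pump Atp2a1 was at 0.140 to 0.495 CPM in R193H and 0.426 to 0.849 CPM in wild type hearts. The skeletal channel Ryr1, at 0.0931 to 0.183 CPM in R193H and 0.142 to 0.303 CPM in wild type hearts, did not pass the filter. Fkbp1b, a small protein that binds the cardiac channel, was at 0.559 to 1.19 CPM in R193H and 0.426 to 1.15 CPM in wild type hearts. Its relative Fkbp1a was at 125 to 154 CPM in R193H and 122 to 131 CPM in wild type hearts. Among the store proteins, Calr (calreticulin) stood at 0.15 (SE 0.087) and Srl (sarcalumenin) at -0.097 (SE 0.080), both as log2 fold changes with overlapping groups. The chaperone Pdia3 was at 215 to 226 CPM in R193H hearts, above the 203 to 205 CPM of wild type hearts. Tmem38b, a potassium channel of the store membrane, was at 14.7 to 16.5 CPM in R193H hearts, below the 16.7 to 18.3 CPM of wild type hearts. The phosphatase Mtm1 and the calcium sensor Stim1 had overlapping groups, at 0.18 and 0.24 on the log2 scale.

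The other partners described here overlapped between genotypes. The pump paralog Atp2a3 had a log2 fold change of -0.16, and the channel relatives Itpr2, Ryr3 and Itpr1 stood at -0.22, -0.53 and -0.046. Ryr3 was low, at 1.48 to 1.96 CPM in R193H and 1.25 to 4.12 CPM in wild type hearts. Akap6, the scaffold that brings protein kinase A to the channel, was at 46.8 to 70.6 CPM in R193H and 66.1 to 85.9 CPM in wild type hearts, a log2 fold change of -0.33 (SE 0.16). The phosphatase subunit Ppp1ca stood at -0.12, and Slc8a1, the exchanger that moves calcium out across the surface membrane, at -0.10.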

How the data were processed

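RNA of 6 mouse hearts was extracted with Trizol and sequenced, per the labels' protocols. The authors deposited raw counts of reads for each gene symbol. HISAT2 2.0.4 and the GRCm38 build are named, per the submitters' processing notes. How reads were counted, with or without strand, is not given in the sources used here, so reads of overlapping or antisense genes cannot be told apart.

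Columns were matched to hearts by title. Replicates were numbered in accession order. In R 4.3.3, edgeR 4.0.16 kept 14370 genes and removed 30422 (filterByExpr), scaled by TMM and compared genotypes with the robust quasi-likelihood test, adjusting p by Benjamini-Hochberg over all genes tested. Alternatives used DESeq2 1.42.0, limma 3.58.1 (voom), other scalings and filters, and each heart left out. No pair of hearts agreed within sampling noise. A count of 0 allows up to 3 counts, or 0.137 to 0.204 CPM, for counting error only. Spans and transcript lengths are from GENCODE M21, promoter windows from RefSeq GRCm38.p6. Of the partner list, Selenon, Mrln and the marker Adgre1 were matched by older symbols.

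The 10 genes, the lists and the tests were chosen with earlier results of these data known. Named genes are the 10, and up to 3 partners per role by p plus 4 fixed ones. Overlapping genes (in the text, those that bear most on a count) and the 5 nearest patterns to Atp2a2 and to Pln are also named. Fkbp1a, Myl7, Tnni3, Myh4, Myh6 and Tnnt2 were named after their values were seen. Some partners that the rule names are not reported here.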

Additional observations from a re-analysis of the deposited data

How the results depend on the processing

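None of the 10 genes passed the threshold under any of the 15 alternatives to the reported fit, where the lowest adjusted p of a gene was 0.45. Of 150 recomputed log2 fold changes, 142 kept their sign. Pln turned to 0.034 under library totals, and Asph to -0.00069 with limma-voom. With single hearts left out, Pln ranged from -0.16 to 0.031 (positive without R193H replicate 2), Trdn from -0.059 to 0.061 (negative without R193H replicate 3 or wild type replicate 2) and Asph from -0.039 to 0.074 (negative without R193H replicates 1 or 3 or wild type replicate 3). The median of the 10 was -0.041 in the reported fit and 0.080 under library totals, where the median of all genes was 0.13. It ranged from -0.084 to 0.036 with single hearts left out, the highest without R193H replicate 2. Over all genes, calls numbered 1 in the reported fit, 0 without mitochondrial genes, 38 without a filter, 42 with DESeq2 and 3 to 21 with single hearts left out; the cause was not tested. In alternatives added after seeing the data, the groups of 4 of the 10 genes did not overlap under DESeq2 size factors and without mitochondrial genes, and of 3 under upper-quartile factors, where Atp2a2 overlapped. Under library totals the 3 were Casq2, Asph and Sri, all higher, beside 17.9% of all genes (16.5% higher). With single hearts left out, the log2 difference of Pln to Atp2a2 ranged from -0.079 to 0.20, of Hrc to Ryr2 from -0.093 to 0.12 and of Casq1 to Casq2 from -0.071 to 0.38. The difference in the share of counts, 0.0058 percentage points, ranged from -0.032 to 0.055 and was -0.13 without mitochondrial genes. No paired analysis was possible because the labels give the groups no shared numbers. With 3 hearts a genotype, the 95% intervals of the 10 genes reach from a fold of 0.746 (Ryr2) to 1.88 (Casq1).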
